A study of Mus musculus with 8 samples.

Results

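The genes described are the Wnt ligands, their receptors, co-receptors, agonists and antagonists, with the nuclear factors Lef1 and Tcf7 and the target gene Axin2. They were chosen by name among the protein-coding genes of the count files: every Wnt, Frizzled (Fzd), secreted Frizzled-related (Sfrp), Dickkopf (Dkk, with Dkkl1) and R-spondin (Rspo) gene, Lgr4, Lgr5 and Lgr6, and Lrp5, Lrp6, Axin2, Lef1, Tcf7 and Wif1. This gave 51 genes out of 55416 gene identifiers in the files. Their RNA was followed in the lungs of 8 mice at 24 h after endotoxin or, in the control mice, saline. The comparisons ask how lipopolysaccharide (LPS) and the protein arginine deiminase inhibitor YW3-56 changed them.

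The mice were C57BL/6 by their labels and C57BL/6J females aged 6 to 8 weeks by the methods. In the control group (3 mice, numbered 1, 2 and 4) DMSO was given intravenously, followed by intraperitoneal saline. In the LPS group (mice 1, 6 and 7) LPS at 35 mg/kg was given intraperitoneally in saline, and a DMSO injection is not mentioned for it. In the dual-treatment group (mice 2 and 5) YW3-56 at 10 mg/kg in DMSO preceded the same dose of LPS. No group was given YW3-56 without LPS. If the LPS mice had no DMSO, LPS against control and the dual treatment against LPS also differ by DMSO. Its effect then cannot be told apart from those of LPS and YW3-56. The total counts per library ran from 19061949 to 20908608. Values are given below as TMM-scaled CPM (counts per 1e6 counts of a library), in the order of the mouse numbers above.

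Wnt proteins are lipidated by Porcn and carried to the cell surface by Wls, and they bind Frizzled receptors together with the co-receptors Lrp5 or Lrp6. Signalling then spares beta-catenin from destruction, so that it can act with TCF and LEF factors on targets such as Axin2, while other Wnt proteins act without beta-catenin on cell polarity and movement. R-spondins, through Lgr4, Lgr5 and Lgr6, hold Frizzled receptors at the membrane, and Sfrp, Wif1 and most Dkk proteins restrain signalling. In the adult lung, Wnt signals from mesenchymal cells are known to maintain alveolar type 2 cells.

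The libraries carried lung RNA, with Sftpc, the surfactant protein gene of alveolar type 2 cells, between 8322 and 24535 CPM and the club cell gene Scgb1a1 between 22675 and 65313 CPM. However, LPS mice 6 and 7 also carried RNA of squamous epithelium and skeletal muscle. The summed level of 17 squamous markers was 18.7, 22.9 and 23.4 CPM in the control mice, 6.05, 874 and 2335 CPM in the LPS mice and 19.8 and 32.9 CPM in the dual-treated mice. The summed level of 12 skeletal muscle markers was 11.9, 31.8 and 17.3 CPM in the control mice, 21.5, 523 and 1336 CPM in the LPS mice and 7.22 and 8.91 CPM in the dual-treated mice. Both sums were thus high in the same pair of LPS mice, whereas in LPS mouse 1 the squamous sum was below and the muscle sum within the range of the control mice. Krt13 and Acta1 were the most abundant genes of these lists, and Krt16, Sprr3, Crct1 and Dsg3 of the first list and Myh2 and Pvalb of the second had no count in any control library. Where a call or a sign changed with LPS mouse 1 as the only LPS mouse, that is therefore also given. Changes in size alone are given only in part.

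Of the 51 members, 42 passed edgeR's expression filter and were tested with 18560 genes in all. Calling a gene took a fold change over 2 and a p under 0.05 in the quasi-likelihood test of edgeR, adjusted by Benjamini and Hochberg over all tested genes. In LPS against control, 15 members fell and 3 rose, where 21.3% of all tested genes were called lower and 17.9% higher. In the dual treatment against control, 5 members fell and 1 rose, where 1.90% of all tested genes were called lower and 5.25% higher. In the dual treatment against LPS, 10 members were higher and 4 lower, where 19.8% of all tested genes were called higher and 14.0% lower. Of the 3 that rose with LPS, Wnt1 and Fzd9 passed the filter through LPS libraries alone, so a test of them required high LPS counts. Likewise Wnt9b, the 1 that rose in the dual treatment against control, and Wnt6 passed only with the dual-treated libraries. The comparisons share groups, so they are not independent of each other. The members were chosen with earlier results of these data known, so their numbers beside those of all genes are not an independent comparison. Log2 fold changes are written log2FC. Where a group is reduced to 1 mouse below, edgeR takes the spread from the other groups, and the lone mouse is assumed to vary as they do. With LPS mouse 1 as the only LPS mouse, 13 members fell and 6 rose in LPS against control, and 9 were higher and 6 lower in the dual treatment against LPS. When 1 mouse was left out at a time, the numbers of members higher and lower in LPS against control ran from 2 to 5 and from 14 to 16. Those of the dual treatment against control ran from 1 to 2 and from 3 to 8, the 8 being without dual-treated mouse 5, and those of the dual treatment against LPS from 7 to 10 and from 3 to 6. A test against a fold change of 1.5 ended the calls of Rspo4 in LPS against control, of Lgr6, Sfrp2 and Tcf7 in the dual treatment against control, and of Sfrp2 and Wnt6 in the dual treatment against LPS.

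**Figure D1:**
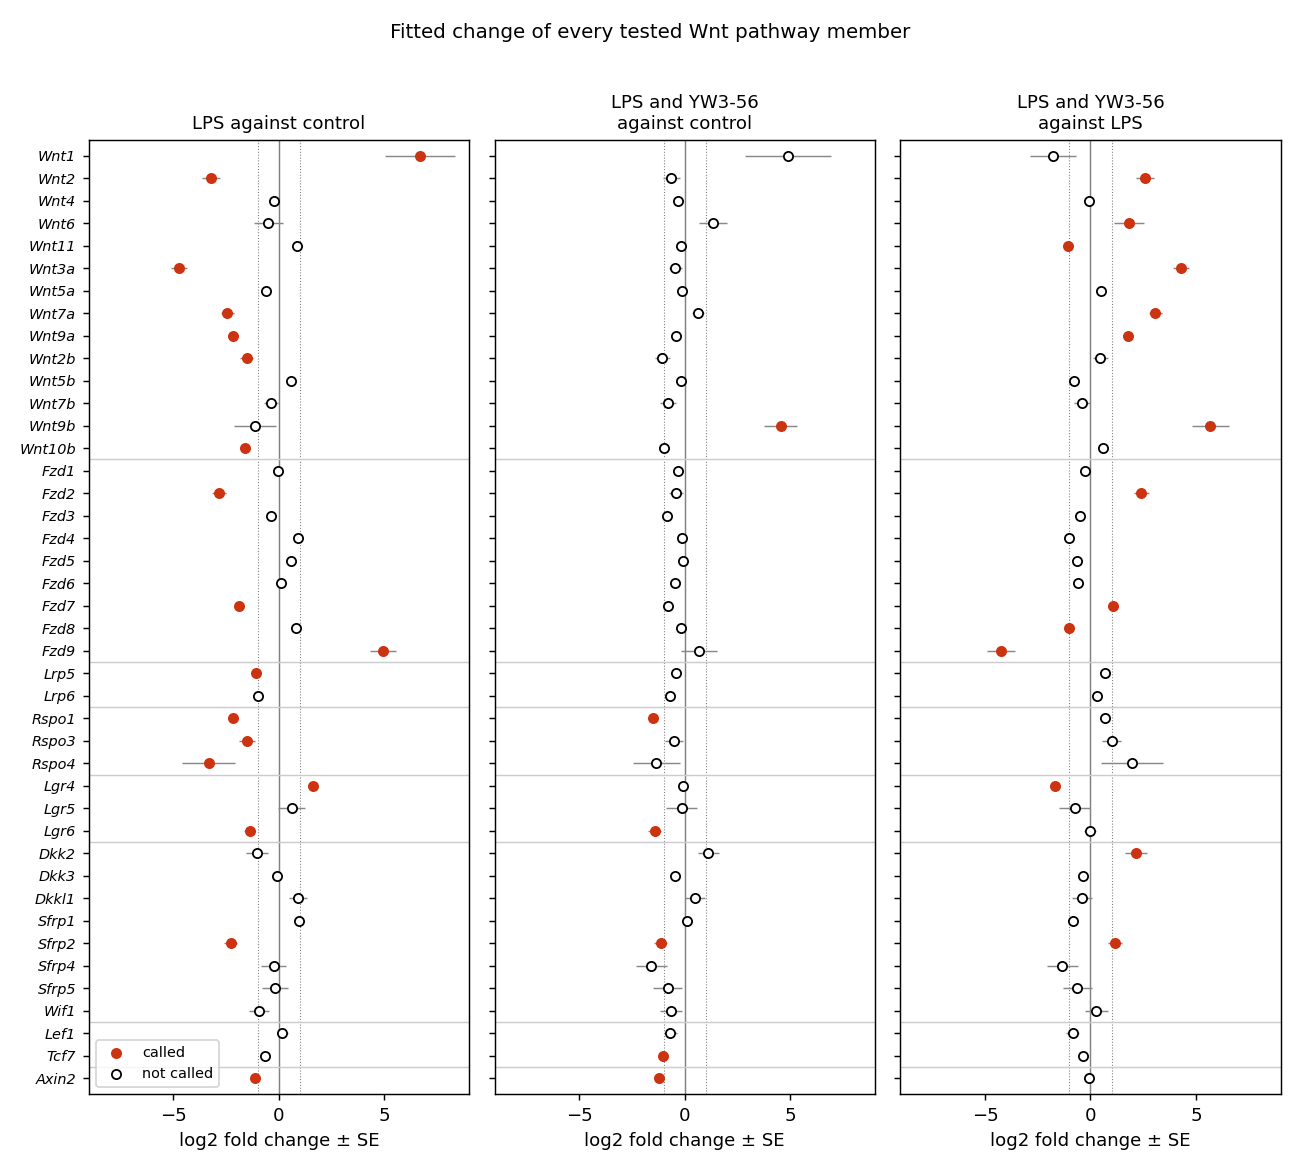
Fitted log2 fold change of each of the 42 tested members (one row each, grouped by role) in the 3 comparisons, with bars of 1 SE. Filled points passed the call (fold change over 2, dotted lines, and adjusted p under 0.05), 18 of them in LPS against control, 6 in the dual treatment against control and 14 in the dual treatment against LPS. Wnt1 had no count in any control library, so its fitted change against control has no fixed size.

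Among the ligands, Wnt3a, Wnt9a, Wnt2 and Wnt7a fell with LPS and were higher again in the dual treatment than in LPS. Wnt3a (ENSMUSG00000009900), an activator of beta-catenin signalling, was at 23.4, 26.4 and 27.0 CPM in the control mice, 0.949, 1.21 and 0.726 CPM in the LPS mice and 11.1 and 26.7 CPM in the dual-treated mice. The LPS mice lay far below every other mouse, dual-treated mouse 5 was inside the control range and mouse 2 was between the groups. Wnt3a was 26.5-fold lower in LPS than in control (log2FC = -4.73 ± 0.359 (SE), adjusted p = 4.23e-06) and 19.6-fold higher in the dual treatment than in LPS (log2FC = 4.29 ± 0.372 (SE), adjusted p = 1.87e-05). The dual treatment did not differ from control by the test (log2FC = -0.44 ± 0.310 (SE), adjusted p = 0.382), but the log2FC was -1.24 and passed the call without mouse 5. It was 0.03 without mouse 2, and the log2FC against LPS was 3.49 without mouse 5. In bulk tissue, fewer cells of a type and less RNA per cell cannot be told apart.

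Wnt9a (ENSMUSG00000000126), a ligand of joint and skeletal development, was at 30.2, 28.1 and 24.2 CPM in the control mice, 4.51, 7.57 and 5.92 CPM in the LPS mice and 18.1 and 23.1 CPM in the dual-treated mice. All LPS mice were below all others, and the dual-treated mice lay just under the control mice. It fell 4.58-fold in LPS (log2FC = -2.19 ± 0.198 (SE), adjusted p = 1.12e-05) and was 3.43-fold higher in the dual treatment than in LPS (log2FC = 1.78 ± 0.212 (SE), adjusted p = 0.000104). Wnt2 (ENSMUSG00000010797), a mesenchymal ligand that specifies the lung in the embryo, was at 8.42, 12.2 and 12.0 CPM in the control mice, 0.475, 1.79 and 1.23 CPM in the LPS mice and 5.13 and 8.91 CPM in the dual-treated mice. LPS mice were again the lowest, dual-treated mouse 5 was within the control range and mouse 2 below it. Wnt2 fell 9.29-fold in LPS (log2FC = -3.215 ± 0.409 (SE), adjusted p = 9.46e-05) and was 5.99-fold higher in the dual treatment than in LPS (log2FC = 2.58 ± 0.432 (SE), adjusted p = 0.000757). LPS mouse 1, at 0.475 CPM, was the lowest of the LPS mice, so both changes are larger from that mouse alone. Wnt7a (ENSMUSG00000030093), a ligand with roles in blood vessels and epithelia, was at 9.98, 8.54 and 10.4 CPM in the control mice, 1.60, 1.67 and 2.07 CPM in the LPS mice and 9.85 and 20.2 CPM in the dual-treated mice. No LPS mouse reached the other groups, and dual-treated mouse 5 was above every control mouse. Wnt7a fell 5.40-fold in LPS (log2FC = -2.43 ± 0.285 (SE), adjusted p = 5.56e-05) and was 8.39-fold higher in the dual treatment than in LPS (log2FC = 3.07 ± 0.303 (SE), adjusted p = 3.82e-05), or 2.44 on the log2 scale without mouse 5. Against control, the log2FC of the dual treatment was 0.64, and it passed the call at 1.03 without mouse 2 and was -0.001 without mouse 5.

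**Figure D2:**
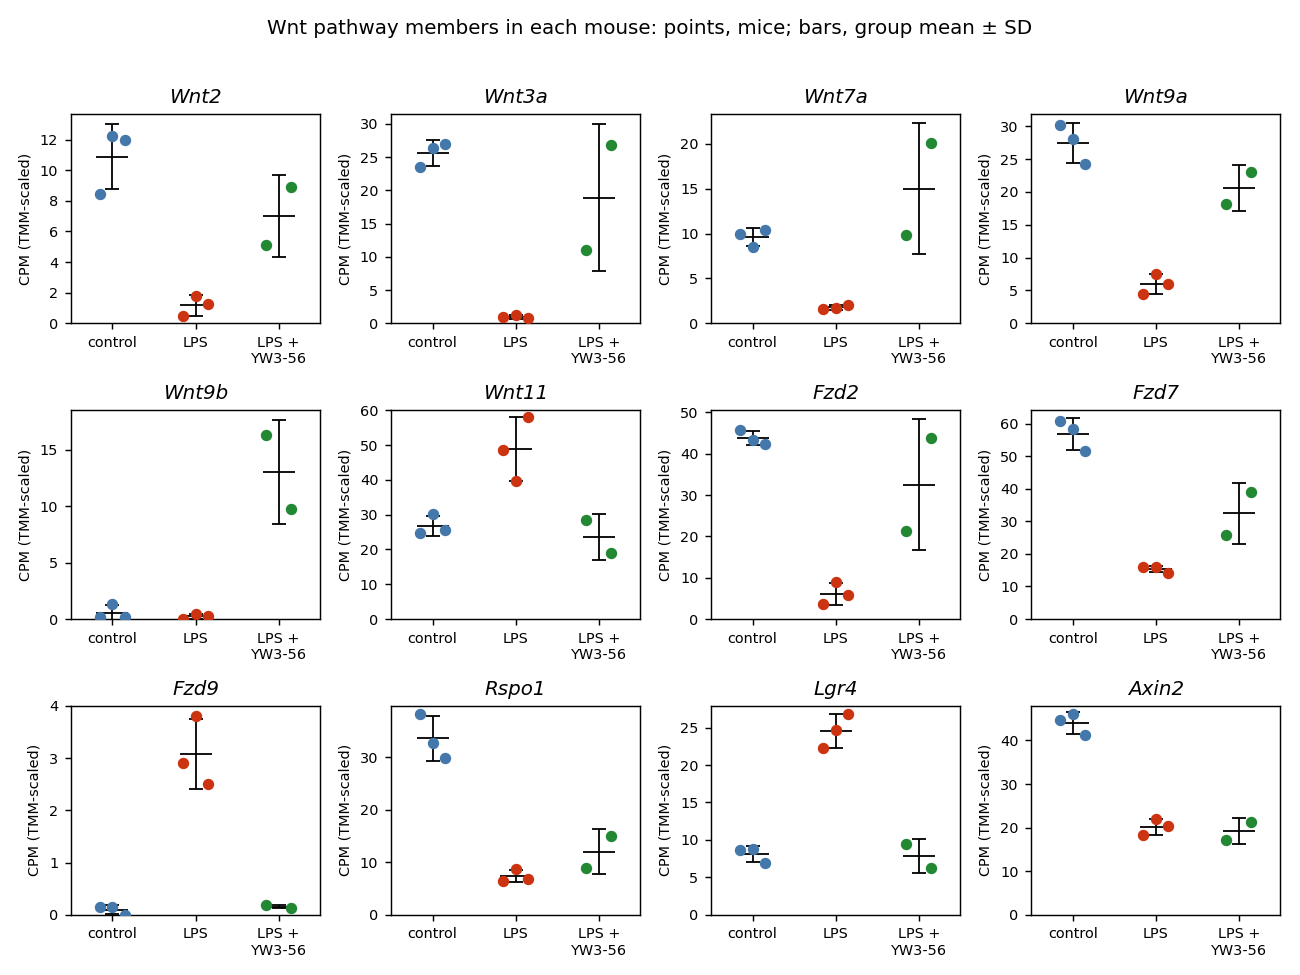
TMM-scaled CPM of 12 members in each mouse (points), with the group mean and SD (bars). The LPS mice lie below all control mice in Wnt2, Wnt3a, Wnt7a, Wnt9a, Fzd2, Fzd7, Rspo1 and Axin2, and above them in Wnt11, Fzd9 and Lgr4, while Wnt9b is at 16.3 and 9.75 CPM in the dual-treated mice and at most 1.31 CPM elsewhere.

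Wnt10b and Wnt2b fell with LPS and were not called different between the dual treatment and LPS. Wnt10b, an activator of beta-catenin signalling, was at 9.98, 11.9 and 11.8 CPM in the control mice, 4.09, 3.70 and 3.29 CPM in the LPS mice and 4.76 and 6.50 CPM in the dual-treated mice. The LPS mice were below the dual-treated mice, and those were below the control mice. The change with LPS was called (log2FC = -1.60 ± 0.194 (SE), adjusted p = 6.72e-05), while that of the dual treatment against control was just under 2-fold (log2FC = -0.996 ± 0.213 (SE), adjusted p = 0.0133) and passed the call at -1.08 without control mouse 1 and at -1.27 without dual-treated mouse 5, and with DESeq2, its size factors or upper-quartile scaling. Wnt2b, which acts with Wnt2 in lung specification, was at 13.4, 15.6 and 6.85 CPM in the control mice, 3.50, 4.74 and 4.19 CPM in the LPS mice and 4.63 and 6.85 CPM in the dual-treated mice. Control mice 1 and 2 were well above all others, and control mouse 4 matched dual-treated mouse 5. Wnt2b fell 2.88-fold in LPS (log2FC = -1.53 ± 0.311 (SE), adjusted p = 0.00184), and the dual treatment differed from control by -1.06 without passing, or by -1.36 and past the call when control mouse 4 was left out. It also passed with DESeq2 and with no filter on low counts.

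Wnt5a, Wnt5b, Wnt4 and Wnt7b were not called with LPS. Wnt5a, the main ligand of beta-catenin-independent signalling, was at 17.1, 18.9 and 16.0 CPM in the control mice, 12.2, 10.1 and 11.8 CPM in the LPS mice and 15.3 and 16.7 CPM in the dual-treated mice. Every LPS mouse was below the rest, by under 2-fold (log2FC = -0.61 ± 0.134 (SE), adjusted p = 0.00292). Its close relative Wnt5b was at 4.01, 3.14 and 3.13 CPM in the control mice, 5.16, 5.89 and 4.35 CPM in the LPS mice and 2.86 and 3.16 CPM in the dual-treated mice, with the LPS mice highest by under 2-fold (log2FC = 0.58 ± 0.217 (SE), adjusted p = 0.0373). Wnt5b overlaps the more abundant Fbxl14 (at most 1253 counts in a library) over 2963 bases on the opposite strand, and the strand setting of the counting was not stated. Wnt4, which acts in kidney and reproductive tract development, was at 23.0, 26.4 and 25.7 CPM in the control mice, 17.6, 20.3 and 25.5 CPM in the LPS mice and 16.1 and 24.1 CPM in the dual-treated mice. The groups overlapped. Wnt7b, an epithelial ligand needed for lung growth, was at 5.38, 6.62 and 5.33 CPM in the control mice, 2.97, 3.70 and 6.70 CPM in the LPS mice and 2.41 and 4.26 CPM in the dual-treated mice. LPS mouse 7 was above all others, and LPS mice 1 and 6 were below every control mouse. Neither LPS against control (log2FC = -0.37 ± 0.330 (SE), adjusted p = 0.339) nor the other comparisons passed. The dual treatment against LPS (log2FC -0.42) turned to 0.16 from LPS mouse 1 alone. LPS mouse 7 also carried the most squamous and skeletal muscle RNA, whose part in the Wnt7b values was not tested.

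Wnt11, a ligand of the beta-catenin-independent kind, was at 24.7, 30.1 and 25.7 CPM in the control mice, 48.6, 39.7 and 58.1 CPM in the LPS mice and 28.4 and 19.0 CPM in the dual-treated mice. All LPS mice were above all others, while the dual-treated mice overlapped the control mice. It differed by under 2-fold in LPS against control (log2FC = 0.86 ± 0.180 (SE), adjusted p = 0.00212) and was 2.06-fold lower in the dual treatment than in LPS (log2FC = -1.04 ± 0.207 (SE), adjusted p = 0.002). That call was lost without LPS mouse 7 (log2FC -0.91), without dual-treated mouse 5 (log2FC -0.805), and with library-size or upper-quartile scaling.

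Wnt9b (ENSMUSG00000018486), a ligand best known from kidney development, was at 0.147, 1.31 and 0.184 CPM in the control mice, 0, 0.462 and 0.279 CPM in the LPS mice and 16.3 and 9.75 CPM in the dual-treated mice. The dual-treated mice stood far above the other 6, of which control mouse 2 was the highest. Of those 6 only control mouse 2, with 28 counts, reached the filter's level of 10 counts. A test of Wnt9b thus required high counts in the dual-treated mice. The dual treatment was 23.4-fold higher than control (log2FC = 4.55 ± 0.788 (SE), adjusted p = 0.00498), or 6.24 on the log2 scale without control mouse 2, and 51.0-fold higher than LPS (log2FC = 5.67 ± 0.881 (SE), adjusted p = 0.000487), or 6.44 without LPS mouse 6. LPS mouse 1 had no count, so from that mouse alone the fold over LPS has no fixed size. LPS alone did not differ from control by the test (log2FC -1.12), and its sign turned to 0.56 when control mouse 2 was left out.

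Wnt1 and Wnt6 were near the limit of detection. Wnt1 had no count in the control mice and stood at 0.890, 0.289 and 0.726 CPM in the LPS mice and 0.363 and 0 CPM in the dual-treated mice, from at most 15 counts per library. It passed the filter only through LPS libraries, so its call in LPS against control was possible only because it was high there, though it was also called with no filter on low counts. Without LPS mouse 1 or 7, or in a fit of LPS and control alone, it failed the filter. The fold was at least 4.47 when control libraries are set to 3 counts each. Leaving out dual-treated mouse 5 or 2 made a call against control or against LPS, each resting on 1 dual-treated mouse and a group without counts, so that no fold is given. Wnt1 and Wnt10b overlap over 2308 bases on opposite strands of chromosome 15, so their reads, too, may not be fully separated. Wnt6, an epithelial ligand, was at 0.538, 0.188 and 0.414 CPM in the control mice, 0.0593, 0.289 and 0.447 CPM in the LPS mice and 1.23 and 0.702 CPM in the dual-treated mice. The dual-treated mice were the highest, with control mouse 1 close below. Outside the dual-treated mice only control mouse 1, with 11 counts, reached the filter's level, so a test of Wnt6 required its dual-treated counts. Its higher level in the dual treatment than in LPS (log2FC = 1.83 ± 0.702 (SE), adjusted p = 0.0472) lost the call under DESeq2, with its size factors, in a fit of the 2 groups alone and when any of 6 mice was left out, with log2FC from 1.345 to 2.14. Of the other ligands, Wnt3, Wnt8a, Wnt8b, Wnt10a and Wnt16 failed the filter with at most 3, 0, 1, 2 and 12 counts in any library.

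Divided by the length of their exons, the ligands can be ranked within a group. In the control mice Wnt3a was highest at 9.26 ± 0.690 CPM per kb (mean ± SD), followed by Wnt9a at 7.02 ± 0.778, Wnt11 at 5.30 ± 0.569, Wnt4 at 4.96 ± 0.356 and Wnt7a at 2.93 ± 0.301. Wnt11 and Wnt4 did not differ beyond their spread. In the LPS mice Wnt11 led at 9.65 ± 1.81 CPM per kb, before Wnt4 at 4.19 ± 0.794 and Wnt9a at 1.53 ± 0.391, and Wnt3a stood at 0.348 ± 0.0881. In the dual-treated mice Wnt3a (6.83 ± 4.0031 CPM per kb), Wnt9a (5.26 ± 0.893), Wnt11 (4.68 ± 1.31), Wnt7a (4.56 ± 2.21) and Wnt4 (3.98 ± 1.13) lay within each other's spread, with Wnt9b at 2.88 ± 1.02. The order of the ligand levels thus differed between LPS and the other groups, with Wnt3a first in control lungs and Wnt11 first after LPS.

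Some of these ligands are neighbours in the mouse genome (GRCm39). Wnt3a (chromosome 11, 59138859 to 59181584, minus strand) and Wnt9a (59197567 to 59224378, plus strand) are transcribed away from each other, with 15982 bases between their gene bodies, and both fell with LPS. Wnt9b (chromosome 11, 103618189 to 103640655, minus strand) and Wnt3 (103664976 to 103708853, plus strand) form a second divergent pair, 24320 bases apart. There the members differed, since Wnt9b was high in the dual-treated mice while Wnt3 had at most 3 counts in every library.

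**Figure D3:**
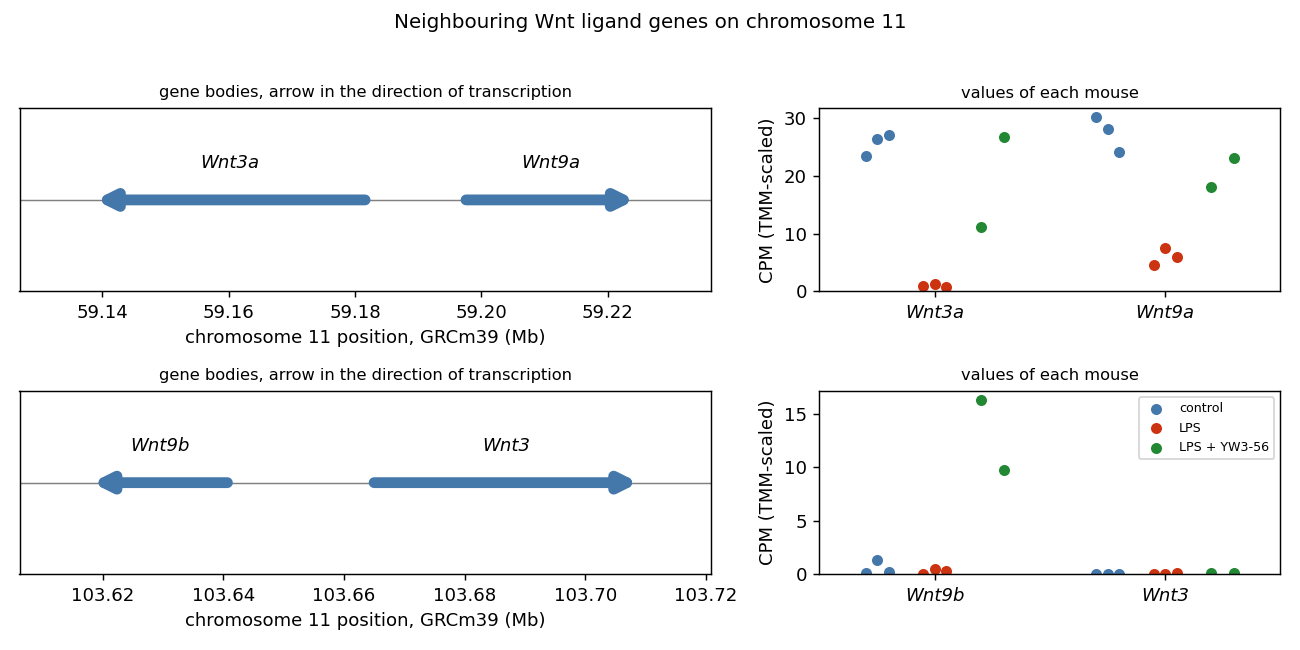
Positions of 2 divergent pairs of Wnt genes on chromosome 11 (left, GRCm39, arrows in the direction of transcription) and their TMM-scaled CPM in each mouse (right). Wnt3a and Wnt9a were both lowest in the LPS mice, whereas of Wnt9b and Wnt3 only Wnt9b was detected well, at 16.3 and 9.75 CPM in the dual-treated mice.

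Because Wnt3a and Wnt9a moved together and Axin2 is a standard readout of TCF and LEF activity, the 250 bases before the annotated start of their canonical transcripts are shown (GRCm39, gene strand, 5′ to 3′). Capitals mark the TCF/LEF core CTTTGAT or its variant CTTTGAA on either strand, the variant having been added after the Axin2 sequence was seen. Of 21627 promoter windows of protein-coding genes 7.52% held either form, as did 4 of the 51 member windows, among them Axin2, Lrp6 and Dkk4. In the Axin2 window (chr11:108811388-108811637, plus strand) a CTTTGAA lies from -22 to -16 relative to the start. The windows of Wnt3a (chr11:59181585-59181834, minus strand) and Wnt9a (chr11:59197317-59197566, plus strand) did not hold these letters, which is a description of the window only.
Axin2: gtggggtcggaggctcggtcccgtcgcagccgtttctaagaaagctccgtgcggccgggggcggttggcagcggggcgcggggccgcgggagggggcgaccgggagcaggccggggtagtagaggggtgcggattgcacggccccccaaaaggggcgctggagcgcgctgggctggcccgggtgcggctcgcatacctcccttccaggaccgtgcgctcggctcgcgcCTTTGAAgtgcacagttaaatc
Wnt3a: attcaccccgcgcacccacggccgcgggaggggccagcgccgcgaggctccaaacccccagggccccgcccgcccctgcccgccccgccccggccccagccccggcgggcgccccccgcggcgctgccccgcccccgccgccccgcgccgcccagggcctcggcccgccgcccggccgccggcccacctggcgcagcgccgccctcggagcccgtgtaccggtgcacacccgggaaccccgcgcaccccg
Wnt9a: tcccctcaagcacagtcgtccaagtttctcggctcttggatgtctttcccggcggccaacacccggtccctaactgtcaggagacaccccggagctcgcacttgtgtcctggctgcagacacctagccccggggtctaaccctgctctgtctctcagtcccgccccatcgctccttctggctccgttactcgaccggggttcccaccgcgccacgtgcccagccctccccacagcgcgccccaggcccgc

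Among the Frizzled receptors, Fzd2 and Fzd7 fell with LPS and Fzd9 rose. Fzd2 (ENSMUSG00000050288), a receptor used by Wnt3a and Wnt5a, was at 45.7, 43.4 and 42.3 CPM in the control mice, 3.56, 8.89 and 5.86 CPM in the LPS mice and 21.3 and 43.7 CPM in the dual-treated mice. No LPS mouse reached the other groups, dual-treated mouse 5 was within the control range and mouse 2 midway. Fzd2 fell 7.16-fold in LPS (log2FC = -2.84 ± 0.332 (SE), adjusted p = 5.46e-05) and was 5.32-fold higher in the dual treatment than in LPS (log2FC = 2.41 ± 0.35 (SE), adjusted p = 0.000328), or 1.77 on the log2 scale without mouse 5. Both changes are larger from LPS mouse 1 alone, which at 3.56 CPM was the lowest of the LPS mice. Fzd7, a receptor of stem and progenitor cells, was at 61.0, 58.3 and 51.5 CPM in the control mice, 15.8, 16.0 and 14.2 CPM in the LPS mice and 25.8 and 39.1 CPM in the dual-treated mice. The groups did not overlap, and the dual-treated mice lay between the others. It fell 3.71-fold in LPS (log2FC = -1.89 ± 0.157 (SE), adjusted p = 7.03e-06) and was 2.11-fold higher in the dual treatment than in LPS (log2FC = 1.08 ± 0.170 (SE), adjusted p = 0.000523). Without dual-treated mouse 5 that second call was lost (log2FC 0.73) and the dual treatment fell below control instead (log2FC -1.17, called).

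Fzd9 (ENSMUSG00000049551) was at 0.147, 0.141 and 0 CPM in the control mice, 2.91, 3.81 and 2.51 CPM in the LPS mice and 0.182 and 0.132 CPM in the dual-treated mice. Every LPS mouse was far above every other mouse. Fzd9 rose 30.5-fold in LPS (log2FC = 4.93 ± 0.610 (SE), adjusted p = 7.86e-05) and was 19.0-fold lower in the dual treatment (log2FC = -4.245 ± 0.669 (SE), adjusted p = 0.000531). It passed the filter only through the LPS libraries, with at most 66 counts in a library, so a test was possible only because it was high there, but with no filter on low counts it was also called in both comparisons. LPS mouse 1, which lacked the squamous and muscle RNA, was within the range of the LPS group.

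Fzd4, Fzd8 and Fzd5 were higher in the LPS mice by under 2-fold. Fzd4, the receptor of norrin in blood vessels, was at 169, 146 and 154 CPM in the control mice, 353, 244 and 272 CPM in the LPS mice and 172 and 119 CPM in the dual-treated mice. All LPS mice exceeded all others (log2FC = 0.89 ± 0.171 (SE), adjusted p = 0.00129), and the difference passed the call without LPS mouse 6 (log2FC 1.01) and from LPS mouse 1 alone (log2FC 1.18). The dual treatment against LPS lay at the edge of the call (log2FC = -0.997 ± 0.196 (SE), adjusted p = 0.00193), which it passed without control mouse 4, LPS mouse 6 or 7, or dual-treated mouse 2 (log2FC -1.02, -1.11, -1.05 and -1.31), from LPS mouse 1 alone (log2FC -1.29), with DESeq2 or its size factors, and in a fit of the 2 groups alone. Fzd8 was at 16.7, 16.9 and 16.9 CPM in the control mice, 40.3, 23.1 and 26.4 CPM in the LPS mice and 14.2 and 15.2 CPM in the dual-treated mice. LPS mouse 1 was the highest and no LPS mouse overlapped another group. Its difference in LPS against control (log2FC = 0.83 ± 0.189 (SE), adjusted p = 0.00353) passed the call from LPS mouse 1 alone (log2FC 1.265). Fzd8 was 2.03-fold lower in the dual treatment than in LPS (log2FC = -1.02 ± 0.217 (SE), adjusted p = 0.00291), but not past the call without LPS mouse 1 (log2FC -0.76), without dual-treated mouse 2 (log2FC -0.99), with library-size or upper-quartile scaling, or with either other filter. Fzd5, an epithelial receptor, was at 40.1, 38.8 and 36.8 CPM in the control mice, 60.7, 49.7 and 60.1 CPM in the LPS mice and 35.5 and 37.2 CPM in the dual-treated mice, with all LPS mice above the rest (log2FC = 0.56 ± 0.101 (SE), adjusted p = 0.000914).

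Fzd1, Fzd3 and Fzd6 were not called in any comparison. Fzd1 was at 51.7, 54.2 and 56.5 CPM in the control mice, 55.3, 50.7 and 50.0 CPM in the LPS mice and 42.0 and 45.2 CPM in the dual-treated mice, with the dual-treated mice lowest. Fzd3 was at 11.2, 12.3 and 11.3 CPM in the control mice, 8.84, 8.43 and 10.048 CPM in the LPS mice and 6.22 and 6.76 CPM in the dual-treated mice, and Fzd6 at 34.3, 36.3 and 39.8 CPM in the control mice, 44.1, 34.9 and 40.7 CPM in the LPS mice and 24.7 and 28.7 CPM in the dual-treated mice. Fzd3 and Fzd6, which act in planar cell polarity, were both lowest in the dual-treated mice, with log2FC of -0.84 and -0.46 against control. Fzd10 failed the filter, with at most 33 counts in a library. Its counts were highest in LPS mouse 7 (0, 0.404 and 1.84 CPM in the LPS mice), which also carried the most squamous and skeletal muscle RNA.

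Per kb of exon, Fzd4 was the highest Frizzled receptor in each group, at 22.8 ± 1.68 CPM per kb in control, 42.3 ± 8.24 in LPS and 21.2 ± 5.47 in the dual treatment (mean ± SD). In control lungs Fzd1 (12.9 ± 0.577 CPM per kb), Fzd2 (12.0 ± 0.462) and Fzd7 (9.70 ± 0.837) followed, the first pair within their spread. In LPS lungs Fzd1 (12.4 ± 0.688 CPM per kb) was followed by Fzd5 (8.19 ± 0.888), and Fzd2 was at 1.67 ± 0.730. Fzd2, level with Fzd1 in control lungs, was thus well below it in LPS lungs.

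Both co-receptors were lower after LPS, and Lrp5 was called. Lrp5 was at 199.9, 198 and 199 CPM in the control mice, 103, 86.4 and 94.8 CPM in the LPS mice and 134 and 168 CPM in the dual-treated mice. The groups were fully apart, with the dual-treated mice between LPS and control. Lrp5 fell 2.10-fold (log2FC = -1.07 ± 0.112 (SE), adjusted p = 2.67e-05), and not past the call from LPS mouse 1 alone (log2FC -0.94). Lrp6 was at 144, 144 and 140.1 CPM in the control mice, 73.2, 68.1 and 75.2 CPM in the LPS mice and 83.7 and 94.3 CPM in the dual-treated mice, lowest in LPS and intermediate in the dual treatment. Its difference in LPS against control was at the edge of the call (log2FC = -0.98 ± 0.0879 (SE), adjusted p = 1.05e-05) and passed without LPS mouse 7 (log2FC -1.003), with library-size or upper-quartile scaling and with either other filter.

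Rspo1 and Rspo3 fell with LPS, as did Rspo4 by a call that depended on single mice, and among the R-spondin receptors Lgr4 rose and Lgr6 fell. Rspo1 (ENSMUSG00000028871) was at 38.2, 32.7 and 29.9 CPM in the control mice, 6.53, 8.66 and 6.81 CPM in the LPS mice and 8.94 and 15.0 CPM in the dual-treated mice. All LPS mice were under all dual-treated mice, which were in turn far below the control mice. Rspo1 fell 4.58-fold in LPS (log2FC = -2.19 ± 0.211 (SE), adjusted p = 1.61e-05) and 2.80-fold in the dual treatment (log2FC = -1.49 ± 0.233 (SE), adjusted p = 0.00298), and the dual treatment against LPS was under 2-fold (log2FC = 0.71 ± 0.229 (SE), adjusted p = 0.024) but over it, and called, without dual-treated mouse 2 (log2FC 1.005) and with library-size scaling. Rspo3, an endothelial and mesenchymal R-spondin, was at 1.32, 1.13 and 1.20 CPM in the control mice, 0.297, 0.578 and 0.391 CPM in the LPS mice and 0.953 and 0.746 CPM in the dual-treated mice. It fell in LPS (log2FC = -1.51 ± 0.399 (SE), adjusted p = 0.0077), and its difference between the dual treatment and LPS passed only without LPS mouse 6 (log2FC 1.28) and with library-size scaling.

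Rspo4 was at 0.783, 0.282 and 0.828 CPM in the control mice, 0, 0 and 0.167 CPM in the LPS mice and 0 and 0.483 CPM in the dual-treated mice. With 3 counts in the LPS libraries together, the control level was 10.9 times the LPS level, with an exact 95% interval from 3.48 to 55.3 that covers counting error only. Rspo4 fell in LPS (log2FC = -3.325 ± 1.26 (SE), adjusted p = 0.0396), and the call was lost without control mouse 1 or 4 (log2FC -3.15 and -3.08) or LPS mouse 1 or 6 (log2FC -2.80 and -2.785). From LPS mouse 1 alone it was lost as well. Without LPS mouse 7 the LPS group had no count, so the fold then has no fixed size. Its level in the dual treatment came from mouse 5 alone. Rspo2 failed the filter, with at most 5 counts in a library.

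Lgr4 (ENSMUSG00000050199), the most widely expressed R-spondin receptor, was at 8.66, 8.82 and 6.94 CPM in the control mice, 22.2, 24.7 and 26.8 CPM in the LPS mice and 9.39 and 6.19 CPM in the dual-treated mice. Every LPS mouse was above every other mouse, and the dual-treated mice lay on either side of the control range. Lgr4 rose 3.02-fold in LPS (log2FC = 1.59 ± 0.183 (SE), adjusted p = 4.81e-05) and was 3.15-fold lower in the dual treatment than in LPS (log2FC = -1.66 ± 0.211 (SE), adjusted p = 0.000153). Lgr6, known from smooth muscle and skin stem cells, was at 9.69, 13.4 and 7.49 CPM in the control mice, 2.97, 3.81 and 4.91 CPM in the LPS mice and 3.86 and 3.78 CPM in the dual-treated mice. LPS and dual-treated mice overlapped, and both groups were below the control mice. Lgr6 fell 2.61-fold in LPS (log2FC = -1.38 ± 0.264 (SE), adjusted p = 0.00124) and 2.67-fold in the dual treatment (log2FC = -1.415 ± 0.301 (SE), adjusted p = 0.0129), the second not past the call without dual-treated mouse 2 (log2FC -1.46). Per kb of exon, Lgr6 was at 1.37 ± 0.401 and Lgr4 at 1.09 ± 0.140 CPM per kb in control, within their spread, whereas in LPS Lgr4 was at 3.30 ± 0.306 and Lgr6 at 0.526 ± 0.132 (mean ± SD). Lgr5, a stem cell marker of the intestine, stayed between 0.138 and 1.08 CPM and was not called.

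Among the antagonists, Sfrp2 was the one called in LPS against control. Sfrp2, secreted by fibroblasts, was at 9.25, 7.46 and 8.23 CPM in the control mice, 2.37, 1.44 and 1.28 CPM in the LPS mice and 2.81 and 4.74 CPM in the dual-treated mice. The groups did not overlap, in the order LPS, dual treatment, control. Sfrp2 fell 4.88-fold in LPS (log2FC = -2.29 ± 0.299 (SE), adjusted p = 0.000112). The dual treatment was lower than control (log2FC = -1.14 ± 0.317 (SE), adjusted p = 0.0394), a call lost without any 1 of the control mice or dual-treated mouse 2 (log2FC -1.05, -1.21, -1.17 and -0.84). It was higher than LPS (log2FC = 1.15 ± 0.325 (SE), adjusted p = 0.0128), a call lost without LPS mouse 7 or dual-treated mouse 5 (log2FC 0.98 and 0.71), and from LPS mouse 1 alone (log2FC 0.66).

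Sfrp1 went the other way, at 17.4, 14.5 and 16.7 CPM in the control mice, 33.2, 33.1 and 27.9 CPM in the LPS mice and 17.7 and 17.6 CPM in the dual-treated mice. The LPS mice were above all others and the dual-treated mice were close to the control mice. The difference with LPS was just under 2-fold (log2FC = 0.955 ± 0.120 (SE), adjusted p = 8.56e-05) and passed the call without control mouse 1 (log2FC 1.01) or LPS mouse 7 (log2FC 1.04), and from LPS mouse 1 alone (log2FC 1.04). Dkk3, a divergent Dickkopf that does not act as a classical inhibitor, was at 96.3, 92.8 and 85.7 CPM in the control mice, 76.2, 102 and 79.4 CPM in the LPS mice and 69.9 and 62.3 CPM in the dual-treated mice, and no comparison was called. Dkk2, which binds Lrp5 and Lrp6, was at 0.734, 0.939 and 0.368 CPM in the control mice, 0.178, 0.404 and 0.391 CPM in the LPS mice and 1.63 and 1.32 CPM in the dual-treated mice. The dual-treated mice were the highest, and Dkk2 was 4.47-fold higher there than in LPS (log2FC = 2.16 ± 0.532 (SE), adjusted p = 0.00654), while LPS against control (-1.05) passed only without control mouse 4 (log2FC -1.34).

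The remaining antagonists were not called in any comparison of all mice. Wif1, which binds Wnt proteins directly, was at 1.03, 2.53 and 2.62 CPM in the control mice, 0.771, 1.10 and 1.34 CPM in the LPS mice and 1.86 and 0.746 CPM in the dual-treated mice, and it passed the call in LPS against control only without control mouse 1 (log2FC -1.265 in place of -0.94). Sfrp5 was at 0.881, 1.5018 and 0.690 CPM in the control mice, 0.237, 1.62 and 0.837 CPM in the LPS mice and 0.635 and 0.527 CPM in the dual-treated mice, with the control and LPS mice overlapping. Dkkl1, a Dickkopf relative of the testis, was at 0.489, 0.657 and 0.506 CPM in the control mice, 0.712, 1.04 and 1.40 CPM in the LPS mice and 0.998 and 0.571 CPM in the dual-treated mice, with the LPS mice above the control mice and the dual-treated mice overlapping both. Sfrp4 stayed between 0.173 and 0.949 CPM, its log2FC of -1.33 between the dual treatment and LPS passing only without LPS mouse 6 (log2FC -1.75), and Dkk1 and Dkk4 failed the filter with at most 7 and 2 counts in a library. Per kb of exon, Dkk3, grouped with the antagonists by its name only, was the highest of this group in control and LPS lungs. It was at 13.4 ± 0.789 and 12.5 ± 2.02 CPM per kb (mean ± SD). Sfrp2 (3.61 ± 0.390 CPM per kb) and Sfrp1 (3.35 ± 0.311) were level in control lungs, whereas Sfrp1 (6.50 ± 0.634) was above Sfrp2 (0.739 ± 0.256) in LPS lungs.

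Axin2 (ENSMUSG00000000142), a feedback inhibitor widely read as a measure of beta-catenin signalling, was at 44.7, 46.0 and 41.3 CPM in the control mice, 18.3, 22.0 and 20.4 CPM in the LPS mice and 17.2 and 21.2 CPM in the dual-treated mice. All LPS and dual-treated mice were below all control mice and overlapped each other. It fell 2.17-fold in LPS (log2FC = -1.12 ± 0.120 (SE), adjusted p = 3.08e-05) and 2.29-fold in the dual treatment (log2FC = -1.20 ± 0.137 (SE), adjusted p = 0.000582). The dual treatment against LPS gave log2FC = -0.08 ± 0.134 (SE), adjusted p = 0.646, so no difference was detected between them, and the sign of this small value depended on the scaling.

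The nuclear factors Tcf7 and Lef1, which partner beta-catenin and are abundant in T lymphocytes, were not called in LPS against control. Tcf7 was at 20.6, 26.8 and 20.7 CPM in the control mice, 15.4, 14.4 and 12.8 CPM in the LPS mice and 11.4 and 10.8 CPM in the dual-treated mice. Both treated groups were below the control mice, the dual-treated mice lowest. Tcf7 fell 2.04-fold in the dual treatment against control (log2FC = -1.03 ± 0.166 (SE), adjusted p = 0.00347), a call lost without control mouse 2 (log2FC -0.89) and with library-size scaling, while LPS against control was under 2-fold (log2FC = -0.68 ± 0.145 (SE), adjusted p = 0.00247). Lef1 was at 4.65, 3.90 and 2.90 CPM in the control mice, 5.10, 4.33 and 3.35 CPM in the LPS mice and 2.68 and 2.06 CPM in the dual-treated mice, with the dual-treated mice lowest. No comparison of Lef1 was called (log2FC = -0.84 ± 0.305 (SE), adjusted p = 0.0372 for the dual treatment against LPS), except that one without LPS mouse 7 or dual-treated mouse 2 (log2FC -1.001 and -1.07) or from LPS mouse 1 alone (log2FC -1.11). The summed level of 12 T lymphocyte markers, with Lck the most abundant and none at 0 in all control mice, was 37.1, 28.9 and 28.048 CPM in the control mice, 35.4, 27.6 and 21.5 CPM in the LPS mice and 18.5 and 21.2 CPM in the dual-treated mice. It was lowest in the dual-treated mice too, and its part in the Tcf7 and Lef1 values was not tested.

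Beyond the 51 members, 80 other genes of the pathway were listed and 75 of them tested. The list was chosen with earlier results of these data known, so its shares are not an independent comparison. In LPS against control 11 rose (14.7%) and 16 fell (21.3%), close to the 17.9% and 21.3% of all tested genes. In the dual treatment against control 1 rose (1.33%, against 5.25% of all tested genes) and 6 fell (8%, against 1.90%). In the dual treatment against LPS 11 were higher (14.7%, against 19.8%) and 12 lower (16.0%, against 14.0%). Wls, the carrier of Wnt proteins, was at 142, 143 and 138 CPM in the control mice, 73.4, 66.5 and 59.5 CPM in the LPS mice and 104 and 115 CPM in the dual-treated mice. Levels were lowest in the LPS mice, with the dual-treated mice between (log2FC = -1.09 ± 0.100 (SE), adjusted p = 1.25e-05 for LPS against control, and log2FC -0.94, not called, from LPS mouse 1 alone). The dual treatment was called higher than LPS with library-size scaling. Porcn, the acyltransferase of Wnt proteins, was at 25.7, 28.3 and 26.8 CPM in the control mice, 27.4, 29.1 and 31.9 CPM in the LPS mice and 54.9 and 31.7 CPM in the dual-treated mice. Dual-treated mouse 2 stood above all others, and no comparison was called.

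Of 13 widely used beta-catenin target genes, 2 rose (15.4%) and 3 fell (23.1%) in LPS against control, near the shares of all tested genes. Myc (6.03-fold) and Cd44 rose, and Notum, Sp5 and Tnfrsf19 (6.12-fold) fell. Myc was lower in the dual treatment than in LPS, and Ccnd1, not called in LPS against control, was 2.98-fold higher there. Notum, a secreted enzyme that removes the lipid from Wnt proteins, was at 6.36, 6.05 and 7.59 CPM in the control mice, 1.19, 1.44 and 1.17 CPM in the LPS mice and 1.45 and 4.61 CPM in the dual-treated mice. The LPS mice and dual-treated mouse 2 were low, and mouse 5 was nearer the control mice. Notum fell 5.24-fold in LPS (log2FC = -2.39 ± 0.392 (SE), adjusted p = 0.000483). Its higher level in the dual treatment than in LPS (log2FC = 1.26 ± 0.427 (SE), adjusted p = 0.0292) was lost as a call in a test against a fold change of 1.5, without LPS mouse 1 or 7 or dual-treated mouse 5 (log2FC 1.205, 1.19 and 0.17), or from LPS mouse 1 alone (log2FC 1.345), and in a fit of the 2 groups alone. The dual treatment was called lower than control without mouse 5 (log2FC -2.22), with DESeq2 and with no filter. Nkd1, a feedback inhibitor of Dishevelled, was at 212, 218 and 240.5 CPM in the control mice, 223, 195 and 160.2 CPM in the LPS mice and 185 and 205 CPM in the dual-treated mice. The dual-treated mice were below the control mice, and the LPS mice overlapped both. Its relative Nkd2, named after its values were seen, was at 21.2, 24.3 and 22.7 CPM in the control mice, 2.31, 2.71 and 4.24 CPM in the LPS mice and 9.98 and 34.1 CPM in the dual-treated mice and fell 7.32-fold in LPS (log2FC = -2.87 ± 0.420 (SE), adjusted p = 0.000233). Znrf3 and Rnf43, the ligases that remove Frizzled receptors, differed from control by -0.79 and -0.55 (log2FC) in LPS without being called, Znrf3 passing the call with library-size scaling. Their levels were 19.1, 19.6 and 20.9 CPM in the control mice, 12.0, 11.4 and 10.997 CPM in the LPS mice and 13.3 and 14.4 CPM in the dual-treated mice for Znrf3, and 16.1, 17.5 and 21.2 CPM in the control mice, 13.4, 12.2 and 11.6 CPM in the LPS mice and 10.1 and 14.6 CPM in the dual-treated mice for Rnf43. Apcdd1, a membrane inhibitor, was at 11.2, 14.5 and 10.3 CPM in the control mice, 13.2, 10.5 and 12.2 CPM in the LPS mice and 19.5 and 15.7 CPM in the dual-treated mice, highest in the dual-treated mice and not called.

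By the lowest adjusted p in LPS against control, the genes named among those that fell are Reck, Tspan12 and Apc2, and among those that rose Celsr3, Tpbg and Cd44. Reck, which lets Wnt7 proteins signal in endothelium, was at 78.1, 76.7 and 80.4 CPM in the control mice, 20.1, 17.8 and 20.2 CPM in the LPS mice and 32.5 and 41.8 CPM in the dual-treated mice. It fell 4.05-fold in LPS (log2FC = -2.02 ± 0.114 (SE), adjusted p = 1.08e-06) and 2.11-fold in the dual treatment (log2FC = -1.08 ± 0.125 (SE), adjusted p = 0.00066), the latter not past the call without dual-treated mouse 2 (log2FC -0.94), while the dual treatment against LPS passed without that mouse (log2FC 1.08) and with library-size or upper-quartile scaling. Its partner Adgra2, chosen after its values were seen, was at 63.0, 77.7 and 70.5 CPM in the control mice, 28.1, 26.2 and 22.3 CPM in the LPS mice and 49.1 and 58.9 CPM in the dual-treated mice and fell in LPS (log2FC = -1.46 ± 0.127 (SE), adjusted p = 8.76e-06). Tspan12, a helper of Fzd4, was at 53.5, 57.1 and 50.4 CPM in the control mice, 13.2, 13.9 and 11.8 CPM in the LPS mice and 23.4 and 32.1 CPM in the dual-treated mice. For these 3 genes the LPS mice were below all others, and the dual-treated mice lay between. Tspan12 fell 4.14-fold in LPS (log2FC = -2.05 ± 0.138 (SE), adjusted p = 2.34e-06) and was 2.14-fold higher in the dual treatment than in LPS (log2FC = 1.10 ± 0.149 (SE), adjusted p = 0.000219). Without dual-treated mouse 5 this second call was lost (log2FC 0.83), and the fall from control passed (log2FC -1.23), as it did without control mouse 4 (log2FC -1.02).

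Apc2, a relative of the tumour suppressor Apc, was at 4.35, 5.16 and 5.89 CPM in the control mice, 0.237, 0.173 and 0.223 CPM in the LPS mice and 3.27 and 4.74 CPM in the dual-treated mice. The LPS mice, with 4, 3 and 4 counts, were far below all others and the dual-treated mice near the control mice. It fell 23.6-fold in LPS (log2FC = -4.56 ± 0.328 (SE), adjusted p = 3.2e-06) and did not differ by the test between the dual treatment and control (log2FC = -0.36 ± 0.269 (SE), adjusted p = 0.412). Celsr3, a planar polarity cadherin, was at 0.881, 0.469 and 1.15 CPM in the control mice, 14.3, 14.0 and 15.2 CPM in the LPS mice and 7.90 and 6.67 CPM in the dual-treated mice. It rose 17.3-fold in LPS (log2FC = 4.11 ± 0.279 (SE), adjusted p = 2.42e-06) and 8.68-fold in the dual treatment (log2FC = 3.12 ± 0.291 (SE), adjusted p = 0.000201), so both treated groups were above every control mouse. The dual treatment against LPS was at the edge of the call (log2FC -0.99), passing it when control mouse 4, LPS mouse 1 or 6, or dual-treated mouse 2 was left out (log2FC -1.02, -1.01, -1.02 and -1.145), with DESeq2 or its size factors, and in a fit of the 2 groups alone. Tpbg, a membrane glycoprotein that dampens beta-catenin signalling, was at 1.42, 1.69 and 1.52 CPM in the control mice, 12.7, 13.9 and 14.3 CPM in the LPS mice and 2.45 and 1.32 CPM in the dual-treated mice. Only the LPS mice were high. It rose 8.82-fold in LPS (log2FC = 3.14 ± 0.247 (SE), adjusted p = 5.14e-06) and was near the control level in the dual treatment. Cd44, a hyaluronan receptor and beta-catenin target, was at 87.4, 75.2 and 93.7 CPM in the control mice, 342, 295 and 242 CPM in the LPS mice and 145 and 151 CPM in the dual-treated mice. LPS mice were highest, and the dual-treated mice were above the control mice. It rose 3.43-fold in LPS (log2FC = 1.78 ± 0.142 (SE), adjusted p = 5.62e-06), and its lower level in the dual treatment than in LPS (log2FC -0.985) passed the call without control mouse 4, LPS mouse 7 or dual-treated mouse 5 (log2FC -1.01, -1.12 and -1.04), with DESeq2 or its size factors, in a fit of the 2 groups alone, or from LPS mouse 1 alone (log2FC -1.215).

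For markers of the cell types known to make or receive Wnt proteins, summed levels and calls in LPS against control follow, the latter beside 21.3% lower and 17.9% higher among all tested genes. The marker lists were chosen with earlier results of these data known, so their shares are not an independent comparison. The 12 fibroblast markers summed to 4793, 4964 and 5164 CPM in the control mice, 1820, 1749 and 1611 CPM in the LPS mice and 3069 and 3544 CPM in the dual-treated mice, and 3 fell (25%) and 1 rose (8.33%) in LPS, near or below those shares. Inmt, the most abundant of them over the 8 mice, carried most of this, and without it the sum was 1859, 2006 and 1883 CPM in the control mice, 1643, 1588 and 1466 CPM in the LPS mice and 1822 and 1378 CPM in the dual-treated mice, with the LPS mice still below the control mice and the dual-treated mice on either side of the LPS mice. The 8 endothelial markers summed to 4518, 4721 and 5013 CPM in the control mice, 2406, 1972 and 1971 CPM in the LPS mice and 3675 and 4010 CPM in the dual-treated mice, and 5 fell (62.5%) in LPS. Cdh5, the most abundant of them over the 8 mice, was not called. The full fibroblast sum and the endothelial sum were lowest in the LPS mice and intermediate in the dual-treated mice. Without Inmt the fibroblast sum did not have this order. Wnt9a, Wnt10b, Lrp5, Lrp6, Fzd7, Rspo1, Rspo3, Sfrp2, Wls, Reck, Adgra2 and Tspan12 were among the genes with it. Axin2, Lgr6, Wnt7a, Wnt2, Wnt3a, Wnt2b, Wnt4, Wnt5a and Fzd2 were among those without it. The share of all tested genes with this order was not determined, so these names do not link the genes to a cell type. The 8 alveolar type 1 markers summed to 6714, 6406 and 6467 CPM in the control mice, 4119, 3389 and 2404 CPM in the LPS mice and 3249 and 4691 CPM in the dual-treated mice, and 5 fell (62.5%) in LPS, but not the most abundant, Ager. Without Ager the sum was 4379, 4220 and 4128 CPM in the control mice, 1687, 1378 and 1108 CPM in the LPS mice and 2270 and 3280 CPM in the dual-treated mice. The 8 alveolar type 2 markers summed to 37676, 31492 and 39570 CPM in the control mice, 26087, 18249 and 14686 CPM in the LPS mice and 19179 and 30310 CPM in the dual-treated mice, and 3 fell (37.5%) in LPS, Sftpc, the most abundant, not being called. Without Sftpc the sum was 13459, 11925 and 15035 CPM in the control mice, 9521, 7195 and 6363 CPM in the LPS mice and 10651 and 12420 CPM in the dual-treated mice. In both alveolar lists the dual-treated mice overlapped the LPS mice in the full sum, but were above every LPS mouse without the most abundant gene. The 6 mesothelial markers summed to 824, 749 and 804 CPM in the control mice, 527, 466 and 398 CPM in the LPS mice and 649 and 939 CPM in the dual-treated mice, and 4 fell (66.7%) in LPS, but not the most abundant, Msln. Dual-treated mouse 5 was above and mouse 2 below every control mouse.

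The other lists moved in other ways. The 7 club and ciliated cell markers summed to 30672, 38980 and 36251 CPM in the control mice, 67294, 56941 and 55624 CPM in the LPS mice and 23737 and 26341 CPM in the dual-treated mice, nearly all of it Scgb1a1, and the 9 smooth muscle and pericyte markers to 539, 661 and 575 CPM in the control mice, 441, 508 and 598 CPM in the LPS mice and 428 and 451 CPM in the dual-treated mice, with Pdgfrb the most abundant. The first sum was highest in the LPS mice, and the second overlapped between control and LPS mice. The 9 neutrophil markers, led by S100a9, summed to 216, 119 and 126 CPM in the control mice, 2142, 2963 and 1854 CPM in the LPS mice and 1716 and 2388 CPM in the dual-treated mice, and the 9 macrophage markers, led by Chil3, to 855, 573 and 791 CPM in the control mice, 918, 1003 and 527 CPM in the LPS mice and 1469 and 1985 CPM in the dual-treated mice. All treated mice were far above the control mice in the first of these, and the dual-treated mice were highest in the second. In LPS against control, 8 neutrophil markers rose (88.9%). In the other lists 2 smooth muscle markers (22.2%), 3 T lymphocyte markers (25%) and 1 macrophage marker (11.1%) fell, near or under the share of all tested genes, and no club or ciliated marker was called by edgeR's test. None of these 9 lists of fibroblast, endothelial, alveolar, mesothelial, airway, muscle wall, neutrophil and macrophage genes had a marker at 0 in all control mice. The part of these cell types in the Wnt pathway values was not tested.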

How the data were processed

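The deposited files hold gene counts; by the submitters' processing notes, the authors checked reads with FastQC 0.11.9, trimmed them with Trim Galore, aligned them to GRCm39 with HISAT2 2.2.1 and counted them with featureCounts 2.0.1. The strand setting, annotation release and treatment of multimapping reads are not given in the sources used here. Of 55416 identifiers, 54749 matched GENCODE M39, and the other 667 held 0.0533% of all counts.

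All 8 libraries were fitted together in R 4.3.3 with edgeR 4.0.16 (filterByExpr by group, TMM scaling, quasi-likelihood F test with 5 residual degrees of freedom, adjustment over 18560 genes). SE is the absolute log2FC divided by the square root of F. DESeq2 1.42.0, other scalings, filters and thresholds, LPS mouse 1 alone and each mouse left out in turn were alternatives. The code was tested on simulated data.

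The members and lists were chosen with earlier results of these data known. Tested members were given in full if called or at 1 CPM or more in a group mean. Of the other pathway genes, 7 secretion and feedback genes and the 3 called genes of lowest adjusted p per direction in LPS against control were named by rule. Outside this rule, Nkd2 and Adgra2 were named after their values were seen. Myc, Sp5, Tnfrsf19 and Ccnd1 were named for their changes, without the values of each mouse. The markers were lists for alveolar type 1 and 2, airway, endothelial, fibroblast, smooth muscle, mesothelial, T, squamous, skeletal muscle, neutrophil and macrophage cells. A group without counts was set to 3 counts per library to bound a fold, and count ratio intervals cover counting error only.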

Additional observations from a re-analysis of the deposited data

How the results depend on the processing

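The 15 members lower in LPS against control ran from 14 to 16 when 1 mouse was left out, and no setting moved this number by over 1.5 times. The 3 members higher in LPS became 5 without a filter, 1 with at least 10 counts in every library, 5 in a test against a fold change of 1.5, 6 from LPS mouse 1 alone and 9 with no minimum fold change, and ran from 2 (without LPS mouse 1) to 5 (without dual-treated mouse 5). The 1 member higher in the dual treatment than in control became 0 with at least 10 counts in every library and 3 by unadjusted p, and ran from 1 to 2 (without dual-treated mouse 2 or 5). The 5 lower ones became 2 in the test against 1.5-fold and 11 with no minimum fold change, and ran from 3 (without control mouse 2 or dual-treated mouse 2) to 8 (without dual-treated mouse 5). Against LPS, the 10 higher members became 6 with at least 10 counts in every library and ran from 7 to 10. The 4 lower ones became 2 with library size only, with upper-quartile scaling and with at least 10 counts in every library, became 13 with no minimum fold change, and ran from 3 to 6.

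Library size alone shifted the median log2FC of all genes by -0.285 in LPS against control and 0.325 in the dual treatment against LPS, and the share of higher genes among the called ones went from 45.6% to 32.5% and from 58.5% to 74.7%. The cause was not tested. No paired analysis was made, because the groups are different mice and a mouse number shared by groups does not mark a pair. With 2 dual-treated mice that differ in many members, the size of each change in that group is uncertain. Of the 15 members called lower in LPS, 13 were higher in dual-treated mouse 5 than in mouse 2. Mouse 5 was inside or above the control range in 5 of the 15, and mouse 2 in 1. Wnt9b, Wnt6, Wnt1, Fzd9, Rspo3, Rspo4, Dkk2 and Apc2 rest on low counts in at least 1 group.

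The log2FC values below, none of them called in the fit of all 8 mice, turned sign with a setting or a mouse left out. Each is given with the settings that turned it and its lowest and highest value over the mice left out. Apcdd1 in LPS against control was -0.003, 0.035 with DESeq2, 0.035 with its size factors, 0.145 from LPS mouse 1 alone, and -0.104 (without control mouse 4) to 0.152 (without control mouse 2), with 0.091 (without LPS mouse 6) between. Axin2 in the dual treatment against LPS was -0.076, 0.244 with library size only, 0.005 with upper-quartile scaling, 0.060 from LPS mouse 1 alone, and -0.263 (without dual-treated mouse 5) to 0.043 (without dual-treated mouse 2). Dkkl1 in the dual treatment against LPS was -0.420, 0.130 from LPS mouse 1 alone, and -0.902 (without dual-treated mouse 2) to -0.099 (without dual-treated mouse 5). Fzd1 in LPS against control was -0.058, 0.036 from LPS mouse 1 alone, and -0.098 (without LPS mouse 1) to -0.021 (without LPS mouse 7). Fzd1 in the dual treatment against LPS was -0.253, 0.075 with library size only, and -0.329 (without dual-treated mouse 5) to -0.213 (without LPS mouse 1). Fzd4 in the dual treatment against control was -0.105, and -0.426 (without dual-treated mouse 2) to 0.108 (without dual-treated mouse 5). Fzd6 in LPS against control was 0.118, -0.171 with library size only, and 0.048 (without LPS mouse 1) to 0.212 (without LPS mouse 6). Lef1 in LPS against control was 0.160, -0.138 with library size only, and -0.006 (without control mouse 4) to 0.324 (without control mouse 1). Lgr4 in the dual treatment against control was -0.064, and -0.424 (without dual-treated mouse 2) to 0.178 (without dual-treated mouse 5). Lgr5 in the dual treatment against control was -0.140, and -0.627 (without control mouse 4) to 0.799 (without control mouse 1). Lgr6 in the dual treatment against LPS was -0.031, 0.281 with library size only, 0.048 with upper-quartile scaling, 0.356 from LPS mouse 1 alone, and -0.20 (without LPS mouse 1) to 0.160 (without LPS mouse 7). Nkd1 in LPS against control was -0.214, 0.001 from LPS mouse 1 alone, and -0.324 (without LPS mouse 1) to -0.086 (without LPS mouse 7). Nkd1 in the dual treatment against LPS was 0.016, -0.038 with DESeq2, -0.038 with its size factors, -0.20 from LPS mouse 1 alone, and -0.111 (without LPS mouse 7) to 0.127 (without LPS mouse 1), with -0.010 (without control mouse 4), -0.082 (without dual-treated mouse 5) between. Porcn in LPS against control was 0.131, -0.151 with library size only, and 0.079 (without LPS mouse 7) to 0.187 (without LPS mouse 1). Rnf43 in the dual treatment against LPS was -0.008, 0.320 with library size only, 0.074 with upper-quartile scaling, 0.019 without a filter, 0.017 with 10 counts in every library, and -0.324 (without dual-treated mouse 5) to 0.211 (without dual-treated mouse 2), with 0.044 (without LPS mouse 1) between. Rspo4 in the dual treatment against LPS was 1.975, and -3.325 (without dual-treated mouse 5) to 5.344 (without LPS mouse 7), both ends fitted over a group without counts and so of no fixed size. Sfrp4 in LPS against control was -0.253, and -1.042 (without LPS mouse 7) to 0.163 (without LPS mouse 6). Sfrp5 in LPS against control was -0.187, and -0.904 (without LPS mouse 6) to 0.265 (without LPS mouse 1), with 0.191 (without control mouse 2) between. Sfrp5 in the dual treatment against LPS was -0.625, 1.263 from LPS mouse 1 alone, and -1.076 (without LPS mouse 1) to 0.093 (without LPS mouse 6). Tpbg in the dual treatment against control was 0.285, and -0.257 (without dual-treated mouse 2) to 0.636 (without dual-treated mouse 5). Wif1 in the dual treatment against LPS was 0.279, and -0.546 (without dual-treated mouse 2) to 0.767 (without dual-treated mouse 5). Wnt11 in the dual treatment against control was -0.181, and -0.529 (without dual-treated mouse 2) to 0.052 (without dual-treated mouse 5). Wnt3a in the dual treatment against control was -0.438, and -1.239 (without dual-treated mouse 5) to 0.032 (without dual-treated mouse 2). Wnt4 in the dual treatment against LPS was -0.072, 0.240 with library size only, 0.006 with upper-quartile scaling, 0.188 from LPS mouse 1 alone, and -0.420 (without dual-treated mouse 5) to 0.163 (without dual-treated mouse 2), with 0.074 (without LPS mouse 7) between. Wnt7a in the dual treatment against control was 0.636, and -0.001 (without dual-treated mouse 5) to 1.031 (without dual-treated mouse 2). Wnt7b in the dual treatment against LPS was -0.419, 0.162 from LPS mouse 1 alone, and -0.915 (without dual-treated mouse 5) to -0.009 (without LPS mouse 7). Wnt9b in LPS against control was -1.124, and -1.890 (without LPS mouse 6) to 0.564 (without control mouse 2).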
